A study of Homo sapiens with 24 samples.

Results

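TMD8, a human line of activated B-cell type diffuse large B-cell lymphoma (ABC-DLBCL), was treated for 8 hours with ITF-B, a histone deacetylase inhibitor (HDACi) known here only by its code name. The account covers the 3 arrays of TMD8 cells given 200 nM ITF-B and the 3 arrays of TMD8 cells given DMSO that were labelled as its controls, chosen by their sample titles. These are 6 of the 24 arrays of the series, in which TMD8 and DoHH2, a line of germinal center B-cell type (GCB-DLBCL), received ITF-A at 100 nM, ITF-B at 200 nM or DMSO. Each of the 8 groups holds 3 arrays, 1 from each of 3 independent experiments, and each compound has its own DMSO arrays in each line. TMD8 and DoHH2 are single established lines grown in culture. The 3 arrays of a group are thus repeats of 1 line and not different lymphomas. The p-values set a change against the spread between such repeats, pooled over the 8 groups. DoHH2 cells with ITF-B, also 3 arrays against 3, serve below as the comparison.

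Histone deacetylases remove acetyl groups from lysines of histones and of other proteins, and their inhibitors let histone acetylation build up, after which the transcripts of many genes rise and those of many others fall. ABC-DLBCL cells are known for signaling that stays on from the B-cell receptor through SYK and BTK, and from Toll-like receptors through MYD88 and the IRAK kinases, both of which lead to the transcription factor NF-kB. They express the activated B-cell factors IRF4 and BATF together with NF-kB target genes, and MYD88 signaling can also induce interferon and the genes that respond to it.

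RNA was read on Illumina HumanHT-12 v4 arrays, which hold 47231 probes. Levels are given as log2 intensity after background correction and quantile normalization, where the median of all probes was 6.15 and values ran from 5.65 to 14.49. A change is the mean log2 level of the ITF-B arrays minus that of the DMSO arrays in a limma fit, so that 1 stands for a doubling, and a probe was called up- or down-regulated at an adjusted p under 0.05 over all probes. Median raw intensities of the 6 arrays were 96.3 to 112. Arrays of the same group correlated at r = 0.993 to 0.996, and an ITF-B and a DMSO array at r = 0.963 to 0.967. A level near the median of all probes cannot be told from background with these files, which hold no detection p-value, and the number of arrays limits the precision. A level is the mean over all cells of a culture, so that fewer cells carrying a transcript and less of it per cell cannot be told apart.

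The DMSO arrays were checked against the labelled cell type. The B-cell receptor chains CD79A (mean 12.3) and CD79B (12.89), the invariant chain CD74 (12.96) and the B-cell antigen MS4A1 (9.68) were bright, as were the ABC-type genes CCND2 (12.24), IRF4 (11.26) and BATF (10.61). The germinal center antigen MME lay at background (5.88). The B-cell factor PAX5 was dim as well (6.3), so the probe read for it says little here. Only 7 of 15 GCB-type genes had a mean under 7 in DMSO, however. CCND2 was also bright in the DMSO arrays of DoHH2 cells (11.71), where BATF read 7.9. Of 19 markers of T and NK cells, 17 had a mean under 7 in DMSO, and the T-cell receptor chains CD3D, CD3E and CD3G did not pass 6.2 in any of the 6 arrays. GZMB was bright, at a mean of 12.99.

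ITF-B changed 11726 of the 47231 probes in TMD8 cells (24.8%), 5929 of them up and 5797 down. Read as genes, each by the probe with the highest mean level, 3875 of 20046 (19.3%) were up-regulated and 3485 (17.4%) down-regulated, 36.7% in all. Of those up-regulated, 648 rose by at least 1 on the log2 scale and 82 by at least 2. Of those down-regulated, 484 fell by at least 1 and 68 by at least 2. Genes under a mean level of 7 were called in 16.9% of cases, those from 7 to 9 in 70.5% and those above in 65.5%. The groups did not overlap for 43.7% of genes, with all 3 ITF-B arrays above the 3 DMSO arrays for 22.6% and below for 21.1%. These shares are the background for the counts that follow, since most of the B-cell genes named are bright. The median change over all genes was 0.00, and the plot of change by level shows rises of dim genes and falls of bright ones at its edges.

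**Figure D1:**
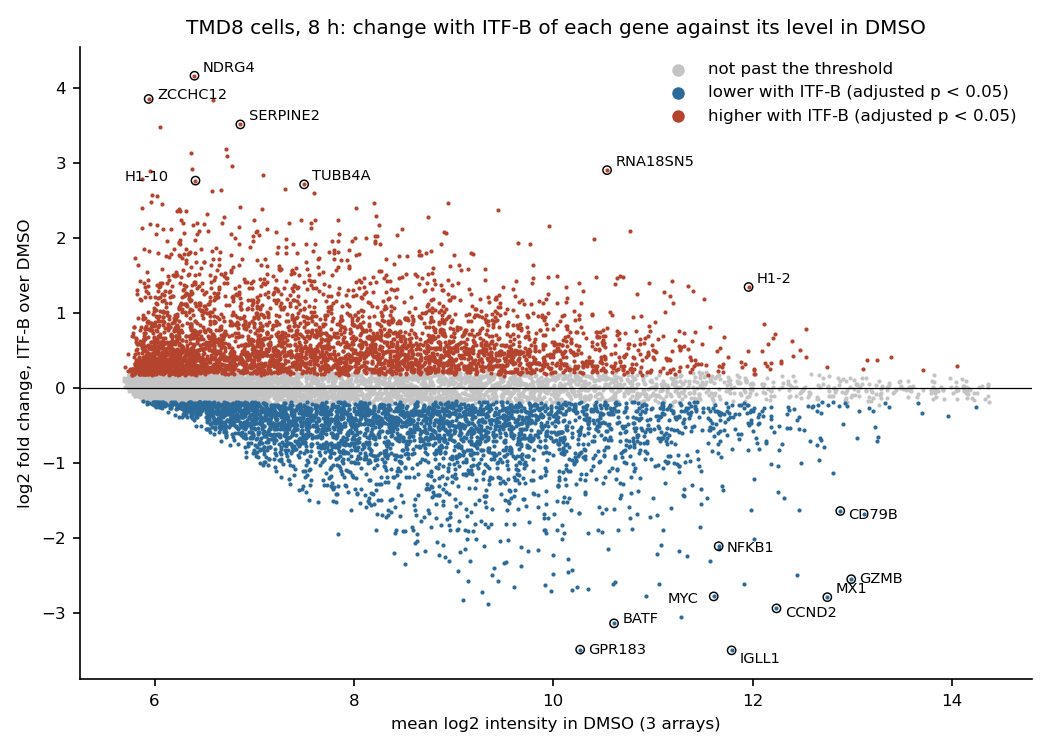
Each point is 1 of 20046 genes in TMD8 cells, with its mean log2 intensity in the 3 DMSO arrays on the x axis and its log2 fold change with ITF-B on the y axis, and colours mark genes past an adjusted p of 0.05. Rises of up to 4.17 start from dim genes such as NDRG4, while the lowest change, -3.50, is that of the bright IGLL1.

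Genes that define B cells were mostly down-regulated. Of 22 measured genes of the B-cell surface and lineage, 18 were down-regulated and 2 up-regulated, with a median change of -0.96 against 0.00 over all genes. IKZF1, the Ikaros factor of lymphoid development, read 9.34, 9.57 and 9.44 in DMSO and 6.95, 6.79 and 6.87 with ITF-B. All 3 treated arrays lay far below all 3 controls, close to the dim part of the range, and the change was -2.58 (SE 0.077, adjusted p = 3.98e-27). CD72, an inhibitory co-receptor of B cells, went from 9.13, 9 and 8.99 to 6.74, 6.58 and 6.48 (-2.44, SE 0.0731). POU2AF1, the B-cell coactivator of octamer factors, fell by 1.94 and BLK, a SRC-family kinase of B cells, by 1.72. The receptor chain CD79B read 12.88, 12.88 and 12.9 in DMSO and 11.38, 11.11 and 11.25 with ITF-B, a fall of 1.64. It remained among the brighter genes in the treated arrays. CD79A changed by -0.74. For MS4A1 the probes disagreed, with -0.90 at the brightest and 0.09, not called, at another with a DMSO mean of 9.3. In DoHH2 cells the same list had a median of -0.42. The test of the difference between the lines put the TMD8 change below the DoHH2 change for 12 of the 22 genes and above it for 3, against 10.8% and 11.8% of all genes.

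Genes that mark the ABC type were down-regulated almost throughout. Of 19 measured, 16 fell and 1 rose (median -0.73), and 16 of the 19 changed in a more negative direction in TMD8 than in DoHH2 cells, where the median was 0.03. BATF, an AP-1 family factor of activated B cells, showed the deepest fall of the list. Its levels were 10.64, 10.64 and 10.55 in DMSO and 7.71, 7.37 and 7.34 with ITF-B, a change of -3.14 (SE 0.0779, adjusted p = 1.2e-29), against -1.58 in DoHH2 cells. CCND2, which encodes cyclin D2, went from 12.19, 12.16 and 12.38 to 9.36, 9.22 and 9.33 (-2.94, SE 0.0686). The highest treated array of either gene lay more than 2 units below the lowest control. IRF4, the factor on which ABC-DLBCL cells depend, read 11.21, 11.24 and 11.33 in DMSO and 9.97, 10.38 and 10.32 with ITF-B. It fell by 1.04 in TMD8 and rose by 0.66 in DoHH2 cells. SPIB, an ETS factor that partners with IRF4, fell by 1.36 in TMD8 cells. STAT3 stood apart from these with a change of 0.25 (adjusted p = 0.012), against 1 in DoHH2 cells, and all 3 of its probes were called up. The call of the probe read for STAT3 was lost without replicate 2 of the ITF-B arrays (0.23, adjusted p = 0.059) and without replicate 3 of the DMSO arrays (0.19, adjusted p = 0.114). Among 15 genes of the GCB type 5 rose and 6 fell, with a median of 0.02. Of the 15, 4 fell and 3 rose by at least 1, and changes ran from -2.24 to 1.78. BCL6, the repressor that directs the germinal center program, rose by 1.59 and MYBL1 by 1.78. LMO2, another gene of the germinal center type, changed by -0.85, -1.2 and -1.06 in experiments 1 to 3.

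Plasma cell genes fell as well, 10 of 14 with a median of -0.91, and 2 rose. TNFRSF17, which encodes the plasma cell receptor BCMA, read 9.13, 8.96 and 9.17 in DMSO and 6.26, 6.27 and 6.24 with ITF-B. The treated arrays lay at background, and the change of -2.83 (SE 0.0872, adjusted p = 1.06e-26) stood beside -3.04 in DoHH2 cells. PRDM1, the repressor that ends the B-cell program in plasma cells, fell by 1.47 and TNFRSF13B, which encodes the BAFF and APRIL receptor TACI, by 1.61. Immunoglobulin lambda-like IGLL1 had the largest fall of all genes, from 11.76, 11.74 and 11.88 to 8.39, 8.32 and 8.18 (-3.50, SE 0.0762, adjusted p = 2.02e-31). Its level in DoHH2 cells was 14.09 with a change of 0.04. IGLL1 shares sequence with the immunoglobulin lambda constant genes, so the transcript read by this probe is uncertain, and its other 2 probes were at background.

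Most genes of the B-cell receptor pathway were down-regulated, kinases and inhibitors alike. Of 18 proximal signaling genes 13 fell and 1 rose, with a median of -0.69, and 11 changed more negatively than in DoHH2 cells. SYK, the kinase that binds the activated receptor, read 11.59, 11.57 and 11.55 in DMSO and 9.46, 9.21 and 9.13 with ITF-B (-2.31, SE 0.0781, adjusted p = 1.96e-25). BTK, the kinase downstream of it, read 10.37, 10.07 and 10.33 against 8.82, 8.46 and 8.50 (-1.66, SE 0.0797, adjusted p = 1.72e-20). Neither gene had overlapping groups, and both fell in DoHH2 cells too, by 0.86 and by 1.23. The phosphatases that oppose the pathway were also down-regulated at their brightest probes, PTPN6 with a change of -2.28 and INPP5D with -1.56. For PTPN6 1 of 3 probes passed and for INPP5D 1 of 2. LYN, which starts the cascade and feeds the inhibitors, changed by -0.71 in TMD8 and by 0.89 in DoHH2 cells, a difference of -1.60 (adjusted p = 2.12e-16). PLCG2, the phospholipase activated by BTK, changed by 0.05 (adjusted p = 0.703). PRKCB, the protein kinase C that acts after it, was the gene that rose, by 0.71.

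Toll-like receptor signaling showed 13 falls and 2 rises among 19 genes (median -0.55), 9 of them dim in DMSO. The adaptor MYD88 read 8.87, 8.97 and 9.04 in DMSO and 7.12, 6.99 and 7.06 with ITF-B, a change of -1.90 (SE 0.0678, adjusted p = 9.89e-25), against -0.97 in DoHH2 cells. IRAK1, the kinase that MYD88 recruits, went from 10.06, 10.06 and 9.92 to 8.41, 8.30 and 8.30. Its change was -1.68 in TMD8 and -2.10 in DoHH2 cells, a difference of 0.42 (adjusted p = 0.0032), a call that was lost at a normexp offset of 16 (0.4, adjusted p = 0.0607). The endosomal receptor TLR7 fell by 1.95, TLR10 by 1.61 and UNC93B1, the chaperone that carries such receptors to the endosome, by 1.53. IRAK2 went the other way and rose by 1.38.

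NF-kB itself is a dimer of REL-family proteins that inhibitors of the IkB family hold in the cytoplasm until a kinase complex marks them for degradation. Among 19 subunits, inhibitors and kinases 12 fell and 2 rose, with a median of -0.66 in TMD8 and 0.00 in DoHH2 cells, and 12 of the 19 had a lower change in TMD8 cells. With arrays scaled to equal medians these medians were -0.58 and -0.25, and 8 of the 19 had a lower change in TMD8 cells. NFKB1 read 11.63, 11.72 and 11.64 in DMSO and 9.48, 9.54 and 9.66 with ITF-B (-2.11, SE 0.079, adjusted p = 5.47e-24), and changed by -1.03 in DoHH2 cells. The inhibitor NFKBIE fell by 1.89 and BCL3, an IkB protein that acts in the nucleus, by 1.68. The adaptor TRAF3, a brake on the alternative pathway, changed by -1.41. RELA, the main activating subunit, changed by 0.17 (adjusted p = 0.0855), a value that passed with arrays scaled to equal medians (0.25, adjusted p = 0.0183). NFKB2 rose by 0.33.

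Target genes of NF-kB moved the same way. Of 27 measured, 20 fell and 1 rose (median -1.04), and 23 of the 27 changed more negatively in TMD8 than in DoHH2 cells, where 9 rose and 8 fell (median 0.11). Upstream sequences of 4 fallen targets are shown because they carry the site that gives the group its name. Promoters of 250 bases before to 50 after the start were taken from RefSeq (GRCh38.p14) for 18 of the 20 fallen genes. A match to the NF-kB consensus on either strand was found in 8 of the 18 (44.4%), against 11.3% of 35116 promoters of the same length. The list was chosen as NF-kB targets and the share was taken for its fallen members only. It therefore does not tell fallen targets from the others. Capitals mark the matches in the 130 bases before the start, written along the strand of the gene: chr14:35404750-35404879 on the minus strand, chr6:137867129-137867258 on the plus strand with 2 matches, chr6:31582426-31582555 on the minus strand and chr2:201118586-201118715 on the plus strand.
NFKBIA: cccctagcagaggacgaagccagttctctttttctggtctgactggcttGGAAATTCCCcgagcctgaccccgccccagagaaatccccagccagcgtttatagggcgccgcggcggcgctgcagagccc
TNFAIP3: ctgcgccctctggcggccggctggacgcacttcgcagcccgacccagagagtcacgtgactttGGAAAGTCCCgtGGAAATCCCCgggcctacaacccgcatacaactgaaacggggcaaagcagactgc
LTB: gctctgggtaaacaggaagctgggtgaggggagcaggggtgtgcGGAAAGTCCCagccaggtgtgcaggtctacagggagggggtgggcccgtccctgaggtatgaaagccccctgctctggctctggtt
CFLAR: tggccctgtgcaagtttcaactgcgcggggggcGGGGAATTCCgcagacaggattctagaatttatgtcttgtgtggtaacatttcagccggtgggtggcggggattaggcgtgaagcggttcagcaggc
The matches start 81 bases before the start of NFKBIA, 67 and 55 before that of TNFAIP3, 86 before LTB and 97 before CFLAR. A match describes the letters and not binding, which was not measured.

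These 4 genes fell in all 3 experiments. NFKBIA, the inhibitor IkB-alpha that NF-kB induces as its own brake, read 11.89, 12.04 and 11.91 in DMSO and 11.1, 11.18 and 11.1 with ITF-B (-0.82). It rose by 0.94 in DoHH2 cells, a difference of -1.76 (adjusted p = 1.72e-18). TNFAIP3, which encodes the deubiquitinase that ends the signal, read 9.1, 9.19 and 9.24 against 8.17, 8.07 and 7.85 (-1.15), and changed by 0.44 in DoHH2 cells. So both feedback inhibitors went in opposite directions in the 2 lines. LTB, a lymphotoxin chain, read 8.54, 8.69 and 8.55 against 6.72, 6.68 and 6.7 (-1.89), and its partner LTA fell by 2.32. CFLAR, the inhibitor of caspase activation at death receptors, read 11.32, 11.2 and 11.25 in DMSO and 9.22, 9 and 9.02 with ITF-B (-2.18). TNF fell by 1.90 in TMD8 and rose by 0.69 in DoHH2 cells, IL6 fell by 1.49, and the chemokine receptor CCR7 was the target that rose, by 0.75. The 2 probes of IL10, which ABC-DLBCL cells secrete, gave different calls: the brighter changed by -0.11 (adjusted p = 0.391) and the other by -0.88 (adjusted p = 5.72e-14).

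**Figure D2:**
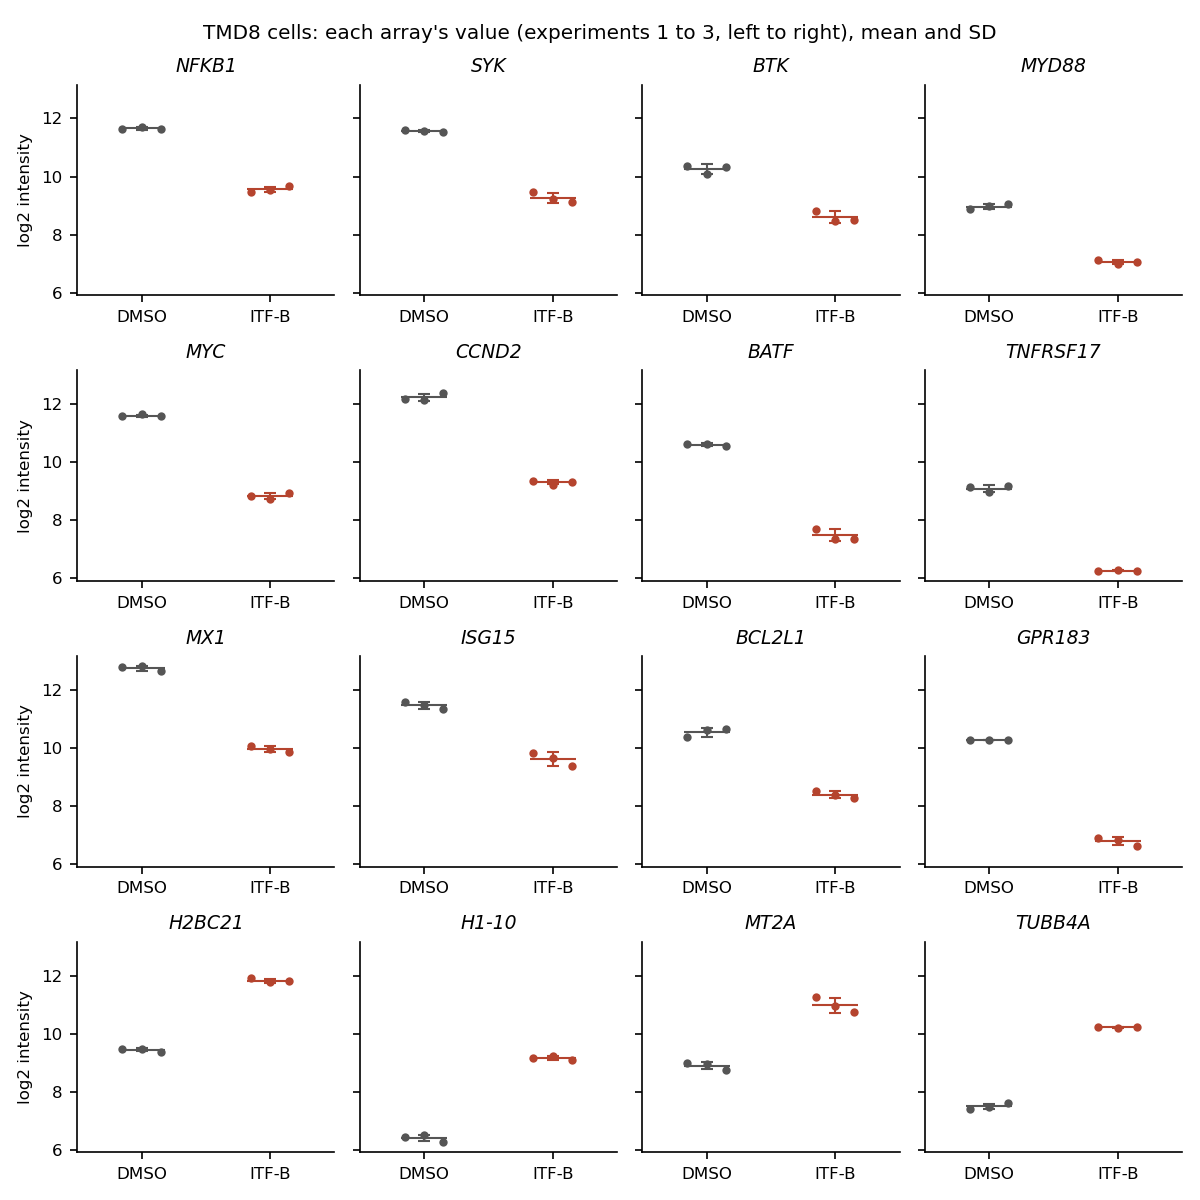
Log2 intensity of 16 genes in the 3 DMSO and 3 ITF-B arrays of TMD8 cells, 1 point per array, with the mean and SD of each group. No gene shown has overlapping groups: the first 12 fell, with changes of -2.11 for NFKB1 and -3.49 for GPR183, and H2BC21, H1-10, MT2A and TUBB4A rose by 2.38, 2.77, 2.08 and 2.72.

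Interferon-stimulated genes, which encode antiviral effectors and the sensors that induce them, were down-regulated in 26 of 31 cases, with 1 rise and a median of -1.10. MX1, a GTPase that blocks viral replication, was among the brightest, with 12.78, 12.83 and 12.65 in DMSO and 10.07, 9.96 and 9.87 with ITF-B (-2.79, SE 0.0836, adjusted p = 4.6e-27). OAS2 and IFI35 changed by -2.71 and -2.50. The 2 lines differed for 25 of the 31 genes, all lower in TMD8, and the DoHH2 median was 0.06 with 8 rises and 13 falls. ISG15, a ubiquitin-like protein, read 11.58, 11.48 and 11.35 in DMSO and 9.84, 9.64 and 9.38 with ITF-B. It fell by 1.85 in TMD8 and rose by 0.84 in DoHH2 cells. IFIT1, which binds foreign RNA, read 8.97, 8.95 and 8.70 against 7.11, 6.96 and 7.05. Its change was -1.83 in TMD8 and 2.36 in DoHH2 cells, and the difference of -4.20 (SE 0.13, adjusted p = 1.92e-25) was the most negative of all genes. IFIT2 changed by -1.12 and 3.04. IRF9 and IRF7, factors that drive this program, fell by 1.26 and 0.98 in TMD8 cells, while OASL rose by 0.76 and IFI6 changed by -0.01. Of 19 genes of MHC class I and peptide loading 3 rose and 7 fell, with a median of -0.03. TAP1, PSMB8 and PSMB10 fell by 1.29, 1.18 and 1.04, HLA-E rose by 0.84, PSMB9 by 0.26 (adjusted p = 0.0153) and the class II chain HLA-DRA changed by 0.04. The call of PSMB9 was lost without replicate 1 of the ITF-B arrays (0.2, adjusted p = 0.136) and without replicate 2 of the DMSO arrays (0.23, adjusted p = 0.0812).

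**Figure D3:**
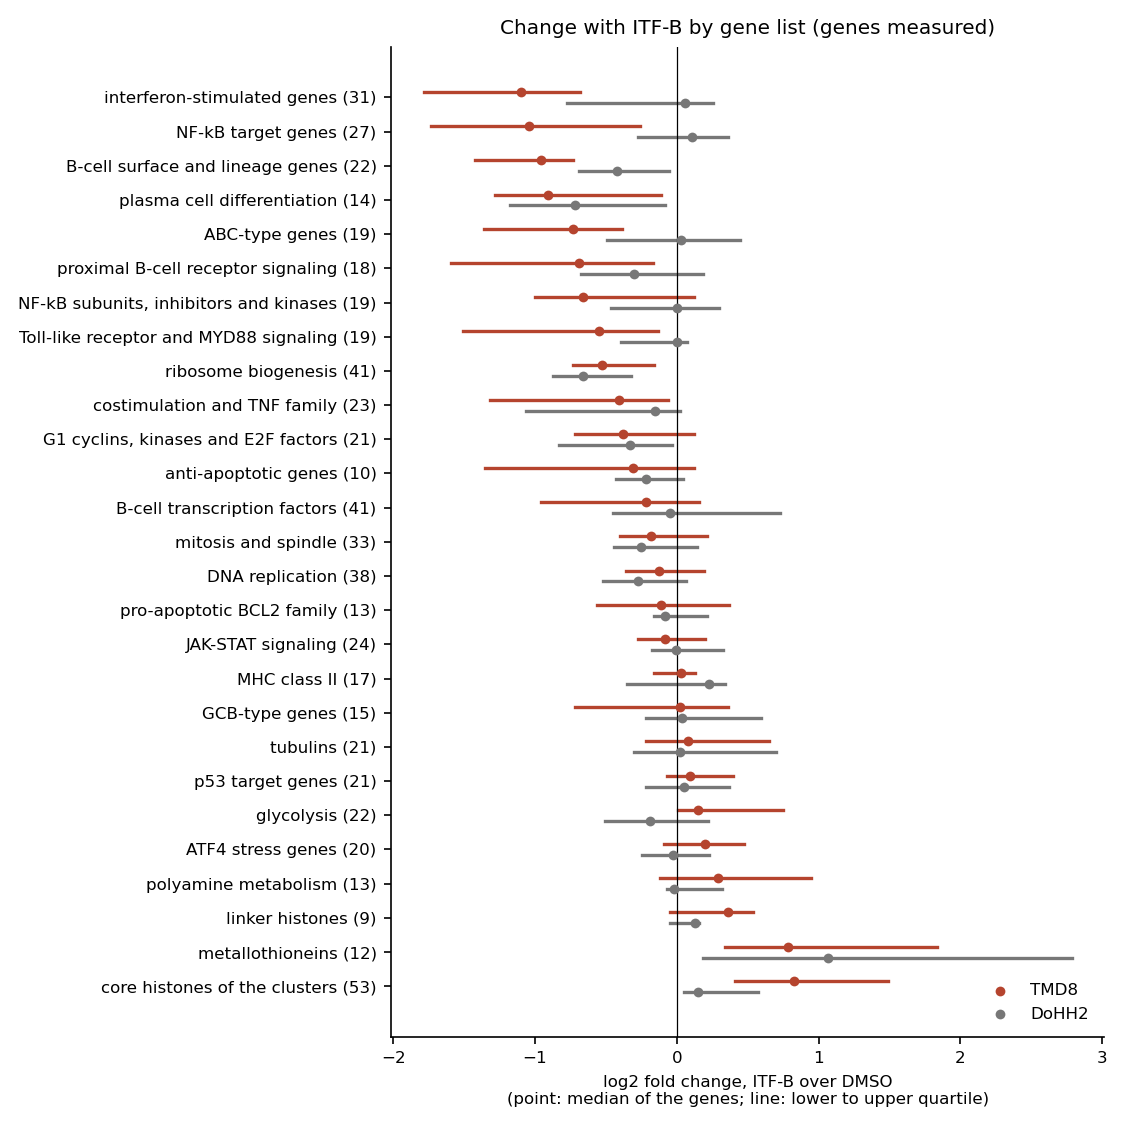
Median log2 fold change with ITF-B over the measured members of 27 gene lists, with bars from the lower to the upper quartile of members, in TMD8 and in DoHH2 cells. ABC-type genes, NF-kB targets and interferon-stimulated genes have TMD8 medians of -0.73, -1.04 and -1.10 beside DoHH2 medians of 0.03, 0.11 and 0.06, and core histones lie at 0.83 beside 0.15.

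MYC was down-regulated. It read 11.61, 11.65 and 11.58 in DMSO and 8.85, 8.73 and 8.93 with ITF-B, a change of -2.78 (SE 0.0947, adjusted p = 2.48e-25), against -1.61 in DoHH2 cells. MXD1 and MXI1, which compete with MYC for its partner MAX, rose by 1.92 and 1.08. Genes of ribosome biogenesis, a textbook target group of MYC, fell in 29 of 41 cases with no rise (median -0.53), and in DoHH2 cells in 34 (median -0.66). NOP16 fell by 1.27, MRTO4 by 1.25, BRIX1 by 1.20 and the pseudouridine synthase DKC1 by 0.99, while FBL, the methylase of ribosomal RNA, changed by 0.07 (adjusted p = 0.581). The E-box CACGTG to which MYC and MAX bind stood in 15 of 35 promoters of the list (42.9%), on either strand, against 7.26% of all promoters. This count took genes of the list whether or not they fell, and FBL is among the matches. A role of MYC in the falls was not tested. UTP18 and UTP4, 2 fallen genes with a match, encode small-subunit processome proteins. UTP18 read 8.13, 8.17 and 8.22 in DMSO and 7.33, 7.24 and 7.29 with ITF-B (-0.89), and UTP4 fell by 0.60. Their 130 bases before the start (GRCh38.p14, plus strand, chr17:51260416-51260545 and chr16:69132519-69132648) are printed with the E-box in capitals, 89 and 16 bases before the start.
UTP18: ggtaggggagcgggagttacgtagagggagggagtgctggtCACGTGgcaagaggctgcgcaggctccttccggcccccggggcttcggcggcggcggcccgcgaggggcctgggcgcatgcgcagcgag
UTP4: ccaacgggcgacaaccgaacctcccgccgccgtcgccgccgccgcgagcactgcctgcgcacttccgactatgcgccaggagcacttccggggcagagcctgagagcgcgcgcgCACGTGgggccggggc

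Among genes that run the cell cycle, G1 cyclins, their kinases and E2F factors fell in 12 of 21 cases and rose in 3 (median -0.38). Besides CCND2, E2F2 fell by 1.54 and CDK4 by 0.78, while CCND3, the other D-type cyclin of B cells, read 10.09, 10.03 and 9.99 in DMSO and 11.22, 11.19 and 11.13 with ITF-B and so rose by 1.14. The cyclin-dependent kinase inhibitors were measured by 7 genes, of which 3 rose and 1 fell. CDKN1A, which encodes p21, read 10.93, 11.08 and 10.89 in DMSO and 11.79, 11.78 and 11.62 with ITF-B. The groups did not overlap, and the change of 0.76 (SE 0.07, adjusted p = 5.35e-12) was smaller than the 1.16 in DoHH2 cells, by 0.39 (adjusted p = 0.00333). With arrays scaled to equal medians that difference was -0.09 (adjusted p = 0.697). CDKN2D rose by 1.33 and CDKN1B fell by 0.42. DNA replication genes had 8 rises and 16 falls among 38 (median -0.12). Thymidine kinase TK1 rose by 1.76 and the helicase subunit GINS2 by 1.06, while thymidylate synthase TYMS fell by 1.06 and GINS3 by 1.61, so members of 1 complex moved apart. Mitotic genes were similar, with 9 rises and 15 falls among 33 (median -0.18), from UBE2C at -0.78 to PTTG1 at 0.76.

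Regulators of apoptosis moved on both sides. Of 10 anti-apoptotic genes 5 fell and 1 rose. BCL2L1, which encodes BCL-XL, read 10.37, 10.61 and 10.66 in DMSO and 8.52, 8.38 and 8.28 with ITF-B (-2.15), and BCL2 fell by 1.52. MCL1 changed by 0.16, which did not pass the test but passed it under 5 of 19 alternatives, with a change of 0.24 when arrays were scaled to equal medians (adjusted p = 0.0178). Of 13 pro-apoptotic BCL2 relatives 4 rose and 6 fell. The BH3-only genes BIK, PMAIP1 and BMF rose by 1.4, 0.99 and 0.78, whereas BCL2L11, which encodes BIM, fell by 1.70 and BID by 1.79.

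Rises were led by genes that were dim in DMSO. NDRG4, a gene known from brain and heart, read 6.44, 6.4 and 6.36 in DMSO and 10.55, 10.66 and 10.5 with ITF-B, an 18-fold rise (4.17, adjusted p = 1.31e-33), against 1.78 in DoHH2 cells. ZCCHC12 went from 5.9, 5.87 and 6.06 to 9.74, 9.84 and 9.83 (3.86), and CAVIN1, a coat protein of caveolae, from 6.07, 6.05 and 6.04 to 9.49, 9.54 and 9.56 (3.48). Neither moved in DoHH2 cells by a comparable amount, with changes of 0.08 and 0.09. SYT11, a synaptotagmin, rose by 3.85 in TMD8 and 3.40 in DoHH2 cells, and the protease inhibitor SERPINE2 by 3.52 in TMD8 cells. Others of the 15 largest rises were DACT3 (3.19), the vesicular glutamate transporter SLC17A7 (3.14), AIF1L (3.10), the zinc transporter SLC30A3 (2.96), TENT5C (2.93) and RAB11FIP1 (2.85). In 13 genes all 3 DMSO arrays were under 6.15 and all 3 ITF-B arrays at 8 or more, among them CAVIN1, EFR3B, DHRS2, NACAD, TUFT1, AHNAK2, SEPTIN4, CRIP2 and PRPH, and 0 genes went the opposite way by that rule. Of 43 genes of synaptic vesicles and neurons, 37 of which were dim in DMSO, 16 rose and 2 fell (median 0.03), led by NDRG4 and SYT11 and followed by PRPH with 2.19, VAMP1 with 1.55 and SYP, a protein of the vesicle membrane, with 1.45. GC boxes (GGGCGG, on either strand) stood in 7 of the 11 promoters found for the 15 largest rises (63.6%), against 45% of all promoters. These genes were picked by their changes, 11 promoters are few, and the difference in share was not tested.

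Receptors and regulators of B cells were among the largest falls. GPR183, the receptor that guides B cells to the follicle border, read 10.27 in all 3 DMSO arrays and 6.9, 6.82 and 6.62 with ITF-B (-3.49). MIR155HG, a host transcript of a microRNA of activated B cells, fell by 3.06, the transmembrane adaptor GAPT by 2.72, the repressor BHLHE40 by 2.70 and the inhibitory receptor SIRPA by 2.66. The long non-coding UCA1 changed by -2.88, the estrogen receptor GPER1 by -2.77 and SH3TC1 by -2.68. The homing receptor CXCR5, which brings B cells into follicles, fell by 1.93, and the integrin chain ITGAL by 2.18 from 8.58, 8.8 and 8.75 to 6.62, 6.48 and 6.48. In contrast CXCR4 rose by 0.96 and the integrin chain ITGB1 by 1.14. GZMB, a serine protease best known from cytotoxic granules, was one of the most abundant transcripts that fell, from 13.05, 12.81 and 13.1 to 10.4, 10.43 and 10.48 (-2.55), and was dim in DoHH2 cells at 5.76. Other abundant transcripts that fell by at least 1 were ARHGAP17 (-1.63), RFTN1 (-1.46), a raft protein of B-cell receptor signaling, PLEK (-2.49), ANP32B (-1.13) and the aspartic protease pseudogene NAPSB (-1.68). Abundant transcripts that rose by at least 1 were the peroxidase GPX4 (1.19), the splicing and export factor EIF4A3 (1.29), NOSIP (1.36), the galectin LGALS1 (1.13) and the ADP/ATP carrier SLC25A4 (1.23).

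Of the 50 lists, the core histones had the largest share of members that rose. Of 53 core histone genes of the clusters 45 were up-regulated and 0 down-regulated, with a median of 0.83, whereas in DoHH2 cells, where 35.8% of all genes were called, 20 rose and 1 fell (median 0.15). The change was higher in TMD8 than in DoHH2 cells for 33 of the 53 and lower for 3. H2BC21 read 9.49, 9.47 and 9.38 in DMSO and 11.91, 11.78 and 11.81 with ITF-B (2.38). H2AC6 went from 8.79, 8.73 and 8.69 to 10.98, 10.97 and 11.13 (2.29), and H4C14 rose by 2.66. H3C8 showed the line difference, with 7.18, 7.15 and 7.06 in DMSO and 9.38, 9.26 and 9.1 with ITF-B, a change of 2.12 against 0.11 in DoHH2 cells (difference 2.01, adjusted p = 7.47e-20). H4C3, one of the brighter members, changed by 0.14 (adjusted p = 0.373), and by 0.27 with arrays scaled to equal medians (adjusted p = 0.0155). Of 9 linker histones 5 rose. H1-10 went from 6.44, 6.5 and 6.28 to 9.18, 9.24 and 9.1 (2.77, and 2.79 in DoHH2 cells), and H1-2 from 11.96, 11.93 and 11.97 to 13.28, 13.3 and 13.32 (1.35). Replacement variants gave 4 rises and 3 falls among 11, H3-3B being up by 1.64. Histone genes are near copies of each other, so a probe may read more than 1 of them.

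A number of structural RNAs, most of which carry no poly(A) tail, rose in the same arrays. Ribosomal, spliceosomal, nucleolar and other structural RNAs were picked by their gene names after their values had been seen and are given as a description. Of 329 measured, 117 were up-regulated and 23 down-regulated in TMD8 cells, against 42 and 65 in DoHH2 cells. Most were dim, and the median change was 0.07 in TMD8 and -0.02 in DoHH2 cells. At a mean of 7 or more over the 6 arrays stood 111, of which 76 rose and 14 fell in TMD8 (median 0.60) and 30 rose and 42 fell in DoHH2 cells (median -0.02). The 28 core histones above the same level had medians of 1.48 and 0.56. This level includes the ITF-B arrays of TMD8 cells, so a rise there helped a gene to pass it. The counts and medians above that level therefore favor rises in TMD8 cells in part by selection. RNA18SN5, the 18S ribosomal RNA, read 10.6, 10.58 and 10.43 in DMSO and 13.45, 13.47 and 13.43 with ITF-B (2.91, SE 0.122, adjusted p = 1.99e-22), and changed by 0.30 in DoHH2 cells (adjusted p = 0.0698). The spliceosomal RNU4-2 went from 8.95, 8.84 and 9.04 to 11.24, 11.36 and 11.64 (2.47, against 0.31), and RN7SK, which holds the elongation kinase in check, rose by 1.5. The small Cajal body RNA SCARNA8 rose by 2.14 and the nucleolar SNORD46 by 2.00. RN7SL1, the RNA of the signal recognition particle, read 14.02, 14.13 and 14 against 14.04, 14.09 and 14.03, a change of 0.00 (adjusted p = 0.986). The nucleolar SNORA70 fell by 0.76. ITF-A gave 118 rises and 22 falls over the 329 in TMD8 cells. Core histone messages of the clusters also end without a poly(A) tail. The labels name the labelling kit, and that this kit primes with oligo(dT) is general knowledge that the labels do not give. Whether the rises of the histones and of these RNAs have a common source was not tested.

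**Figure D4:**
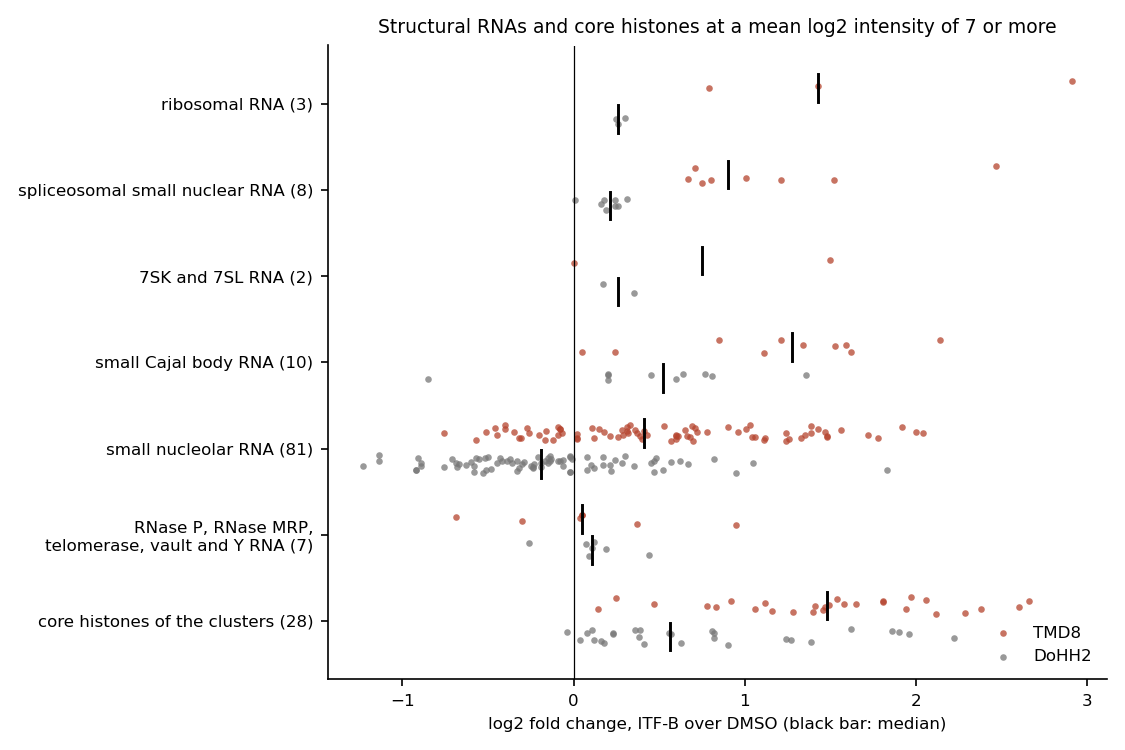
Log2 fold change with ITF-B of structural RNAs by class and of core histone genes, each point 1 gene with a mean log2 intensity of 7 or more over the 6 TMD8 arrays, in TMD8 and in DoHH2 cells, with black bars at the medians and the number of genes in brackets. The core histones have medians of 1.48 in TMD8 and 0.56 in DoHH2 cells, and RNA18SN5 at 2.91 is the highest of the structural RNAs in TMD8 cells. A rise in TMD8 cells helped a gene to pass the level, so the lines are not shown on equal terms. Over all 53 core histones the medians were 0.83 and 0.15.

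Metallothioneins, small proteins that bind zinc and copper and are induced by metals through the factor MTF1, rose in both lines. The list holds 12 measured genes, among them MTF1 and the zinc exporter SLC30A1, and 9 rose and 0 fell (median 0.79, and 1.07 in DoHH2 cells). Upstream sequences of 2 members are shown for their metal response elements. The core TGCACNC or TGCGCNC, on either strand, stood in 6 of the 7 promoters found (85.7%) against 29.6% of all promoters. Capitals mark it in the 180 bases before the start of MT1X (chr16:56682290-56682469, plus strand, 4 matches) and MT2A (chr16:56608404-56608583, plus strand, 6 matches) in GRCh38.p14.
MT1X: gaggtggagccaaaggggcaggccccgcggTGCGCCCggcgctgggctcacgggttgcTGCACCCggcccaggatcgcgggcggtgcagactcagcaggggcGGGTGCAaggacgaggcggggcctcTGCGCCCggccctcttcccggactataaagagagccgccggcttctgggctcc
MT2A: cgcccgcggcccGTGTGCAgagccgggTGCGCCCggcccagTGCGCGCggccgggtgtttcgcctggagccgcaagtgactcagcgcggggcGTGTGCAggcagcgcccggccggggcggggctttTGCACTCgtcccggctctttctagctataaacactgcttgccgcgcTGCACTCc
MT2A read 8.98, 8.96 and 8.76 in DMSO and 11.25, 10.95 and 10.74 with ITF-B (2.08, against 2.80 in DoHH2 cells). MT1X read 9.22, 9.23 and 9.07 against 11, 11.1 and 10.81 (1.80), and MT1G rose by 1.94. In DoHH2 cells MT1X rose by 3.14 and MT1G by 3.79, and 5 of the 12 genes had a lower and 2 a higher change in TMD8 cells. Metallothionein genes are close paralogs, and their probes may share signal.

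Tubulins moved in both directions, with 8 rises and 5 falls among 21, and 5 of the rises were of at least 1. TUBB4A, a beta-tubulin of neurons, read 7.42, 7.46 and 7.6 in DMSO and 10.22, 10.2 and 10.24 with ITF-B (2.72). The neuronal TUBB3 rose by 2.12, TUBB2A by 2.25 and TUBB2B by 2.10. TUBB4B changed by 1.53, 0.98 and 1.08 in experiments 1 to 3. TUBB, the isotype of dividing cells, fell by 0.71. Of 18 histone deacetylases and sirtuins 7 rose and 1 fell. SIRT2 rose by 1.43 and HDAC3 by 0.46, and HDAC2 changed by 0.11, which did not pass.

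The 2 lines differed in their response to ITF-B at 6896 probes (14.6%), 3608 with a higher and 3288 with a lower change in TMD8 cells. As genes these were 2364 (11.8%) and 2160 (10.8%). This balance rests on quantile normalization: when arrays were scaled to equal medians, 5667 probes were higher and 1858 lower. Under that scaling 13 of 19 ABC-type genes, 20 of 27 NF-kB targets and 21 of 31 interferon-stimulated genes had a lower change in TMD8 cells, and 34 of 53 core histones higher. Opposite directions in both lines were seen for DUSP2 (-1.86 in TMD8 and 1.44 in DoHH2 cells), a phosphatase of MAP kinases, for its relative DUSP5 (-0.91 and 2.19) and for the activation marker CD83 (-1.34 and 1.89). CD69, an early activation marker, changed by -0.02 in TMD8 and 2.84 in DoHH2 cells. CEBPB changed by 1.52 in TMD8 and -0.31 in DoHH2 cells, and CXCR4 by 0.96 and -0.53. The chaperone HSPA1A changed by 1.86 in TMD8 and 0.10 in DoHH2 cells. BBOX1 and PVRIG fell by 3.08 and 2.79 in DoHH2 cells, and their TMD8 levels were dim with changes of 0.05 and 0.00.

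**Figure D5:**
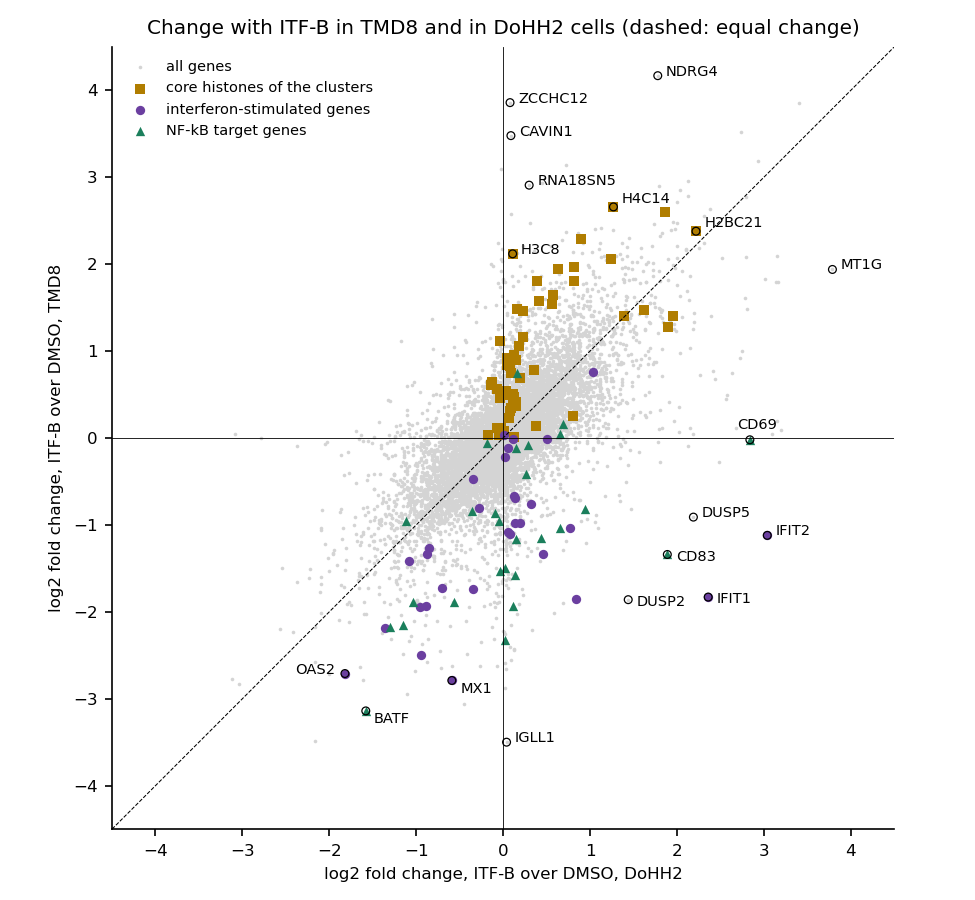
Each point is 1 gene, with its log2 fold change with ITF-B in DoHH2 cells on one axis and in TMD8 cells on the other, and coloured points mark core histones, interferon-stimulated genes and NF-kB targets. IFIT1 and IFIT2 lie at 2.36 and 3.04 in DoHH2 and at -1.83 and -1.12 in TMD8 cells.

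ITF-A at 100 nM called 11960 probes (25.3%) in TMD8 cells against its own DMSO arrays. The doses differ, so its values only stand beside those of ITF-B. With ITF-A the change was -2.23 for NFKB1, where ITF-B gave -2.11. Medians of the lists with ITF-A were -0.83 for the ABC-type genes, -0.92 for NF-kB targets, -1.15 for interferon-stimulated genes and 0.82 for core histones. The test of ITF-B against ITF-A over the 2 pairs of groups passed at 0 of 47231 probes in limma, with 2104 (4.45%) at an unadjusted p under 0.05. The 2 DMSO groups of TMD8 cells differed at 17 probes (0.036%), 1 of them higher in the controls of ITF-B (0.00212%) and 16 lower (0.0339%). As genes these were 9 (0.0449%), all lower.

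Markers of other cell types stayed mostly at background. Of 17 myeloid markers 3 rose and 1 fell, with summed linear levels of 2242 to 2524 in DMSO and 2198 to 2488 with ITF-B. Mesenchymal and muscle markers had 7 rises and 1 fall among 19, in which COL1A1, a fibrillar collagen chain, rose by 0.73 from a level of 6.4, and their sums were 5776 to 6164 and 6763 to 7127. For T and NK cells 0 of 19 rose and 2 fell, GZMB and CD5. Each was read at its brightest probe, and 2 of the 3 probes of CD8A were called up. The sums of 8482 to 10070 in DMSO and 2553 to 2611 with ITF-B moved with GZMB.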

How the data were processed

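RNA of TMD8 and DoHH2 cells was labelled as biotinylated cRNA and read on 24 Illumina HumanHT-12 v4 arrays on 2 chips of 12, with experiment 1 of TMD8 cells on one chip and experiments 2 and 3 on the other. For every one of the 47231 probes the authors deposited an intensity that had not been normalized, without detection p-values. A further table deposited by the authors holds log2 levels, made by quantile normalization and batch correction according to the paper's methods. Each of the 24 columns lay nearest to the array it is named for, and the table served as an alternative.

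Intensities were background-corrected by normexp (offset 50), quantile-normalized and taken to log2 in R 4.3.3 with limma 3.58.1. One linear model of all 24 arrays held the 8 groups and the chip, and moderated tests were two-sided with Benjamini-Hochberg adjustment over all probes. The code was tested on simulated data. Of the probes 30113 carry 1 gene symbol, 8 several and 17110 none, and each of 20046 genes was read from its brightest probe. For some named genes other probes did not pass: 1 of 4 passed for MXI1, 1 of 2 for IFIT1 and for CDKN2D, and 2 of 4 for NDRG4. Probes of some list members were called in opposite directions. These were 1 up and 2 down for CD86 and for MACROH2A1, and 1 up and 1 down for INSIG1.

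Named genes are the 15 largest rises and falls and the 8 largest line differences in each direction. They include genes that went from dim to bright (up to 10) and the 8 most abundant rises and falls of at least 1. The genes that the paper names for treated cells and members of 50 lists complete them. CDKN2C, which the paper names, had no probe under that single symbol and was not read. The members, lists and rule were chosen with earlier results of these data known, and some list members and the structural RNAs were picked for the text after their values had been seen.

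Arrays of the same number come from the same experiment by their titles, which pairs them. Over 23615 probes, deviations of ITF-B and DMSO arrays with the same number correlated at -0.0864, 0.0162 and 0.142. The main fit holds no experiment term, and a fit with the experiment as a block was run beside it. Alternatives were other background settings, the log2 table, median scaling, bright probes alone, no chip term, each chip alone and a replicate block. Others were arrays of the comparison alone, array weights, both DMSO groups as control and the mean over all probes of a gene. A minimum change of 1 was also set, and each array of the compared groups was left out in turn. Figures were drawn with matplotlib.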

Additional observations from a re-analysis of the deposited data

Results flagged for a closer look

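These 16 genes had the largest differences between the lines in the response to ITF-B, 8 in each direction, each by the limma test of the difference itself. The change was higher in TMD8 than in DoHH2 cells by 3.78 for ZCCHC12, by 3.39 for CAVIN1, by 3.11 for AIF1L, by 2.49 for NACAD and by 2.48 for TENT5C, genes that rose in TMD8 cells. RNA18SN5 followed with a difference of 2.61. For BBOX1 (3.13) and PVRIG (2.79) the difference came from a fall in DoHH2 cells, with dim levels in TMD8 cells. The difference was -4.20 for IFIT1, -4.15 for IFIT2, -3.30 for DUSP2, -3.22 for CD83 and -3.10 for DUSP5, all of which fell in TMD8 and rose in DoHH2 cells. IGLL1 had a difference of -3.53 with a fall in TMD8 cells. The difference of -3.11 for SOX18 and of -3.05 for SUCNR1 came from rises of 3.20 and 3.10 in DoHH2 cells, beside changes of 0.09 and 0.05 at dim levels in TMD8 cells.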

How the results depend on the processing

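Under the alternatives that kept all arrays and the threshold, the 5929 up- and 5797 down-regulated probes stayed within 1.5 times. With chip 2 alone 3918 rose and 3765 fell, and with a change of at least 1 asked for, 844 rose and 690 fell. The line difference of 3608 higher and 3288 lower probes became 5667 and 1858 with median scaling, 1888 and 1815 with chip 1 alone, 2101 and 1984 with chip 2 alone, and 355 and 449 at a change of at least 1. The 17 probes between the DMSO groups became 1 with an offset of 16, 8 with the authors' log2 table, 7 with chip 2 alone and 0 with median scaling, with chip 1 alone and at a change of at least 1. The 0 probes between ITF-B and ITF-A became 20 with chip 1 alone and 55 with both DMSO groups as control. With each array of the compared groups left out in turn, 5417 to 5684 rose and 5234 to 5459 fell. In the same way 3261 to 3447 were higher and 2958 to 3149 lower between the lines. The DMSO groups then differed at 1 to 22 probes and the compounds at 0 to 1. With the experiment as a replicate block 5930 rose, 5793 fell, 3617 were higher, 3307 were lower and 21 differed between the DMSO groups, and the block changed no call of a named gene. A chip alone holds fewer arrays. The cause of the other shifts was not tested. ComBat on the chip was planned and not run. No called change of a named gene reversed direction. Besides the losses given with STAT3, PSMB9, IRAK1 and CDKN1A, STAT3 lost its call at an offset of 16 (0.26, adjusted p = 0.0699) and with chip 1 (0.24, adjusted p = 0.0796) or chip 2 alone (0.27, adjusted p = 0.19), and NFKB2 (0.4, adjusted p = 0.0532), SNORA70 (-0.4, adjusted p = 0.0754) and PAX5 (-0.27, adjusted p = 0.2) with chip 2 alone. PSMB9 lost it at an offset of 16 (0.3, adjusted p = 0.0576), with chip 1 (0.21, adjusted p = 0.0971) or chip 2 alone (0.35, adjusted p = 0.0976) and with the mean over all its probes (0.15, adjusted p = 0.113). The line difference of IRAK1 lost its call with chip 1 (0.35, adjusted p = 0.222) or chip 2 alone (0.47, adjusted p = 0.0657), and that of CDKN1A with chip 2 alone (-0.26, adjusted p = 0.439) and with the mean over all its probes (-0.18, adjusted p = 0.0743), where IL10 gained one (-0.49, adjusted p = 7.82e-08). Of 950 medians of the 50 lists under 19 alternatives 146 moved, and 30, from 15 lists whose reported medians lay within 0.08 of 0, changed sign. Dim genes limit what can be seen, since no detection call separates them from background.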

Other observations

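Stress and metabolic genes moved in part. Of 22 glycolysis genes 10 rose and 1 fell (median 0.15), against a median of -0.19 in DoHH2 cells, and 15 had a higher and 1 a lower change in TMD8 cells. The glucose transporter SLC2A3 read 6.51, 6.64 and 6.43 in DMSO and 8.89, 8.90 and 8.77 with ITF-B (2.33), and PFKFB4, which sets a regulator of glycolytic flux, read 7.54, 7.55 and 7.46 against 9.49, 9.43 and 9.41 (1.93). All treated arrays of both genes lay above all controls. HK2, a hexokinase, was the member that fell, by 0.94. TXNIP, which binds thioredoxin and lowers glucose uptake, rose by 1.99 from a DMSO mean of 10.4.

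Of 13 genes of polyamine metabolism 8 rose and 3 fell (median 0.29), and SAT1, the acetylase that starts polyamine breakdown, rose by 2.16 while the synthase gene SRM fell by 0.82. Of 19 heat shock chaperones 7 rose and 5 fell, HSPA1A by 1.86 and the co-chaperone BAG3 by 1.83 among the rises. HSPA1A and HSPA1B are near copies, so their probes may share signal. Of 20 ATF4 stress genes 10 rose and 2 fell (median 0.20), and of 22 genes of the unfolded protein response 8 rose and 4 fell, with CRELD2 up by 1.43 and HSPA5 by 0.79. Of 20 genes of cholesterol synthesis 10 rose and 3 fell, led by SREBF1 with 1.65.

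Members of the TNF family and costimulation genes fell in 14 of 23 cases and rose in 2 (median -0.41). Besides those described, the costimulatory ligand CD80 fell by 1.46, the receptor CD40 by 1.16 and CD70 by 1.09, while TNFSF9 rose by 1.33. Of 30 cancer-testis antigens 27 were dim in DMSO, and 1 rose and 2 fell. The 12 widely used reference genes had a median change of 0.04, or 0.16 with arrays scaled to equal medians.

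Between the DMSO groups of TMD8 cells, NECAB1 had the largest difference among the 9 genes, with a level that differed by -0.80 (controls of ITF-B minus those of ITF-A) (adjusted p = 0.000447).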
